A study of Gallus gallus with 33 samples.

Results

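Transcription factor expression 2 hr after a laser lesion was examined in sensory epithelium that had been cultured from the chick utricle. The data were all arrays labelled as laser against control at 2 hr, 8 of the 33 arrays of the series, and they came from 2 of its 9 biological samples. On each array, labelled RNA of lesioned cultures was hybridized together with RNA of unlesioned cultures harvested at the same time. Of the 1534 identifiers on the later print of the array, 16 ending in mm and a digit were left aside, and the other 1518 were described. Values are log2 ratios of laser over control, so a value above 0 was higher in the lesioned cultures.

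The lesioned group was sensory epithelium that had been freed from the underlying tissue with thermolysin, grown on fibronectin, cut along lines with a pulsed laser microbeam and left to recover for 2 hr. Its control group was treated in the same way and was kept beside the microscope stage without being cut, so both groups shared dissection, culture and time outside the incubator. The tissue came from White Leghorn chicks between the second and the third week after hatching, with no transgene or drug, and their sex was not given in the sources used here. RNA of pooled specimens, several to a biological sample, was amplified over 2 rounds before labelling, and the arrays of 1 biological sample repeated and dye-swapped a single pair of RNAs. Other arrays of the series covered recovery for 30 min, 1 hr and 3 hr (5, 6 and 14 arrays), each with controls of its own time.

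The utricle is a balance organ of the inner ear whose sensory epithelium holds mechanosensory hair cells surrounded by supporting cells. In birds, supporting cells can divide or change fate to replace lost hair cells, and at a wound they also spread to close the gap. The hours before any division are therefore a time at which transcription factors, the proteins that switch genes on and off, are of interest in this tissue. The arrays carried oligonucleotides of 50 bases designed on human transcription factor genes, and chick RNA was read on them across species. Among the 1518 identifiers, 817 (53.8%) equalled a chicken symbol or synonym, and the names printed are those of the array design.

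The 8 arrays differed widely in brightness. The median over an array's spots spanned 158 to 1695 units for laser RNA, with a middle array at 572, and 186 to 2411 units for control RNA, with a middle array at 475. From 0.26% to 78.6% of spots on an array fell below their local background in the laser channel (median 2.86%), and from 0.358% to 82.5% in the control channel (median 3.91%). Duplicate spots of an array correlated at 0.713 to 0.873. A probe was tested when at least 50% of the 33 arrays showed it above a signal of 1000 in one channel or both. This filter on dim probes kept 371 identifiers (24.4%). Of these 371, 365 would also have passed on the 2 hr arrays taken alone, where 1100 of the 1518 identifiers passed the same rule. The filter over the whole series was thus much stricter than one set on the 2 hr arrays.

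The dye orientations correlated positively in one sample and negatively in the other. Within replicate 1, the mean ratios of the arrays with laser RNA in Cy3 and in Cy5 correlated at 0.23 over the 371 probes. Within replicate 2 they correlated at -0.36, although both orientations hold the same RNA pair and the image names in the file headers state the dyes. Single arrays of replicate 2 correlated at -0.018 and 0.016 with the same dye and at -0.64 to 0.19 with opposite dyes. Those of replicate 1 correlated at 0.07 to 0.43 with the same dye and at -0.018 to 0.40 with opposite dyes. Repeats of 1 RNA pair were thus often unlike even without a change of dye. The headers were followed, and which orientation of replicate 2 runs the wrong way, if either does, was not tested. Values with its Cy5 arrays left unturned, or with its Cy3 arrays turned as well, are therefore given for the leading genes, singly or as a range. On 1 of the 8 arrays, in replicate 2, the Cy3 and Cy5 files hold each other's image according to their headers.

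Very few of the probes were bright in both channels on nearly all arrays. Only 4 of the 1518 identifiers gave over 1000 units for laser and for control RNA on 80% or more of the 2 hr arrays, AF5Q31, FLJ11186 and JUNB among them. AF5Q31 had 3382 to 64726 units in the laser channel and 3199 to 65467 units in the control channel. FLJ11186 had 3301 to 65479 units in the laser channel and 2543 to 65395 units in the control channel. Both passed on 8 of 8 arrays and passed the same rule at 30 min, 1 hr and 3 hr. Their highest readings lay near the top of the scanner's scale, where differences between channels are no longer measured. JUNB, a subunit of the AP-1 transcription factor, had 534 to 16179 units in the laser channel and 547 to 14212 units in the control channel. It passed on 7 of 8 arrays, and among the other times it passed only at 30 min. By the same rule 62 identifiers were detectable at 30 min, 5 at 1 hr and 9 at 3 hr. Replicate 1 alone gave 5 identifiers and replicate 2 alone gave 21, of which 3 were shared. The share of identifiers above 1000 in both channels ran from 1.19% to 90.6% over the 8 arrays, and the part of array brightness in this count was not tested.

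No probe was called between laser and control after adjustment over the 371 probes. With limma fitted on the 9 biological samples, 0 of 371 probes (0%) had a Benjamini-Hochberg adjusted p under 0.05 at 2 hr, and the smallest adjusted p was 0.997. Without adjustment 6 probes (1.62%) had a limma p under 0.05, and they were ABP/ZF, ATBF1, EBF, FOXB1, POU5F1 and PRDM15. This share is below the one that a threshold of 0.05 lets through without any difference. The spread used by this fit came from the samples of all recovery times. The SD over probes was 1.03 in 3 hr replicate 1, against 0.16 to 0.40 in the other samples. Without 3 hr replicate 1, 16 probes had a limma p under 0.05 before adjustment and 0 after it. Ratios were small. Their median size was 0.14 on the log2 scale, they ran from -0.66 (MYT2) to 0.83 (ATBF1), and 0 probes passed 2-fold. The half-width of the 95% interval, without adjustment, had a median of 0.517 over the 371 probes, and it was narrower for probes with less spread. In this bulk RNA, fewer cells of a type and less RNA per cell cannot be told apart. The fit of the 2 hr samples alone called 12 of the 371 probes at adjusted p under 0.05, among them ATBF1, ID1, FOXB1, MYT2, MADH7 and POU5F1. That fit leaves 1 residual degree of freedom, and the p-values of the 12 probes followed the size of the mean ratio alone. The calls therefore do not show that the 2 samples agreed on a probe. MYT2, for example, was called at -0.95 in replicate 1 and -0.37 in replicate 2. With single arrays as units, which are technical repeats, and the image date as a random block, an alternative chosen after seeing the data, 1 probe was called, ATBF1 (adjusted p = 0.017).

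Across probes, the 2 hr samples correlated more closely with each other than either did with a sample of another time. The log2 ratios of replicates 1 and 2 correlated at 0.40 over the 371 probes, which share arrays, print and amplification, and the SD over probes was 0.258 in replicate 1 and 0.232 in replicate 2. Between a 2 hr sample and a sample of another time, the correlation ran from -0.14 to 0.33. Among the other recovery times, samples of different times correlated at -0.26 to 0.38, the highest for 1 hr replicate 2 and 3 hr replicate 1. A correlation near that at 2 hr was thus also seen between samples of unlike times. The 2 hr correlation was 0.19 with no background correction, -0.15 with the Cy5 arrays of replicate 2 unturned and 0.15 with its Cy3 arrays turned as well. Both samples lay above 0 for 118 probes (31.8%) and below 0 for 125 (33.7%).

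**Figure D1:**
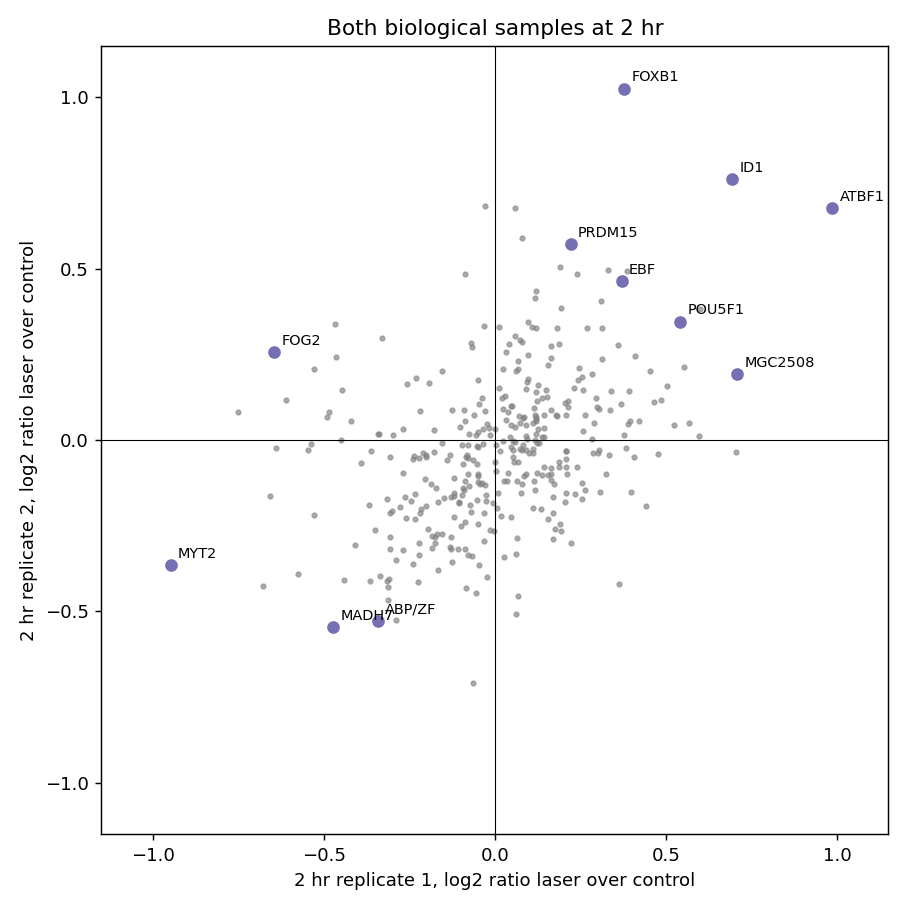
Log2 ratio of laser over control at 2 hr in replicate 1 (horizontal axis) against replicate 2 (vertical axis), 1 point for each of the 371 tested probes. The cloud tilts upward (r = 0.40), with ATBF1 high in both samples and MYT2 and MADH7 low in both.

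A stricter description asked for 1 sign in all 4 means of sample and dye orientation, since a dye effect of a probe turns sign between orientations. By this rule 75 of 371 probes (20.2%) had 1 sign, 32 of them above 0 (8.63%) and 43 below 0 (11.6%). The same count, also over 4 means, was 8.09% at 30 min and 12.4% at 1 hr. Those means rested on 5 arrays at 30 min and 6 at 1 hr, against 8 at 2 hr, and the part of array number was not tested. With a mean over 1.2-fold as well, 14 probes (3.77%) were higher and 21 (5.66%) were lower in the lesioned cultures at 2 hr. The split between higher and lower depended on the scaling. It was 2 higher and 46 lower with median centring in place of loess, which moved the median of all tested probes to -0.097, against -0.0015 with loess. With the deposited ratios it was 1 higher and 56 lower at a median of -0.11, and with no background correction it was 5 higher and 4 lower. The Cy5 arrays of replicate 2 left unturned gave 10 higher and 12 lower.

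**Figure D2:**
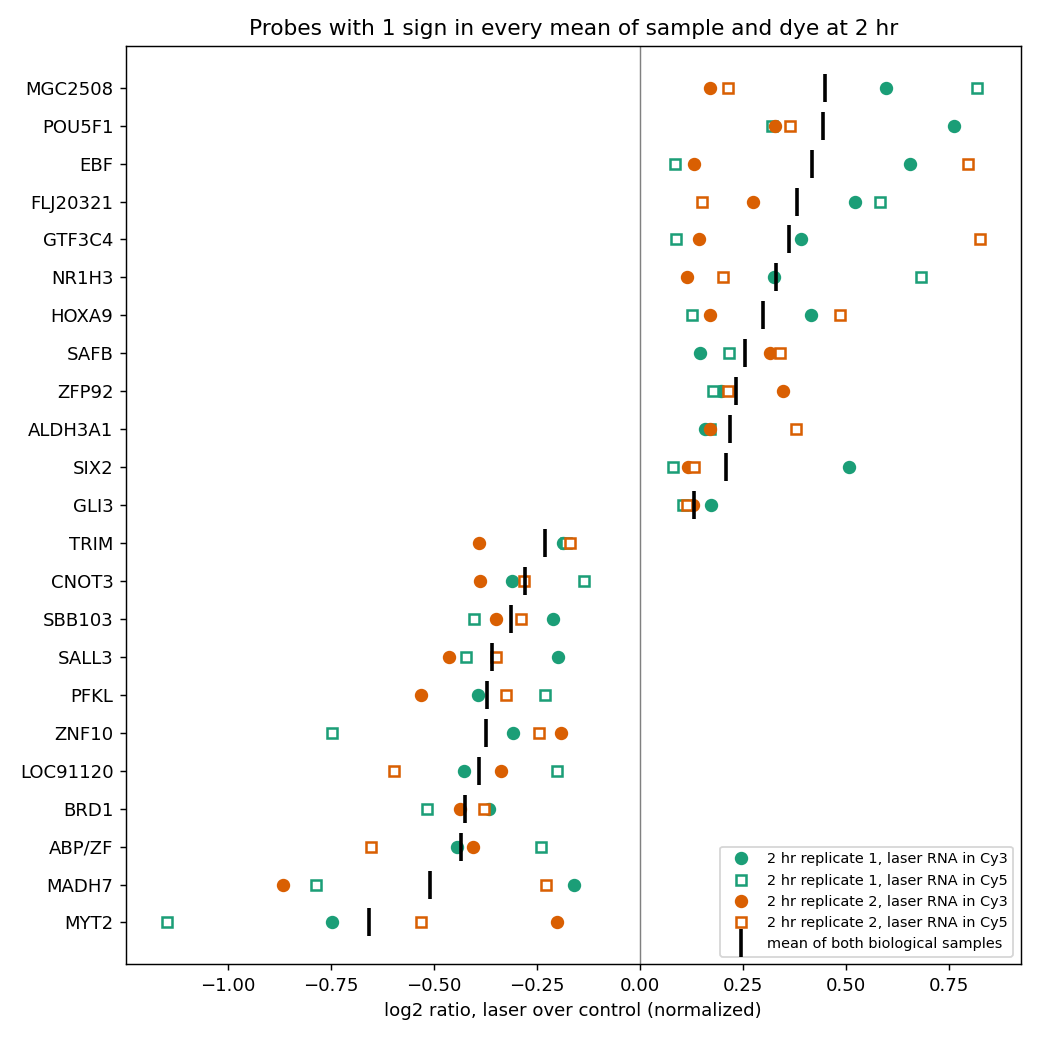
Log2 ratio of laser over control at 2 hr (horizontal axis) for 12 higher and 11 lower genes with the steadiest sign. The 4 points of a gene are means of 1 biological sample in 1 dye orientation and the bar marks their mean. All 4 points of a gene lie on 1 side of 0, between 0.081 (SIX2, the smallest of the higher genes) and 0.82 (GTF3C4) above it and down to -1.15 (MYT2) below it.

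Looser thresholds, like those of the study, asked for p under 0.05 before adjustment, a ratio over 1.2-fold and 1 sign on at least 80% of arrays. The p was that of limma on the 9 samples, whereas the study ran a one-sample t-test on its hybridizations. With such a t-test in place of limma, 2 probes passed on samples and 19 on arrays. A ratio over 1.2-fold was seen for 34 probes (9.16%) higher and 31 (8.36%) lower, and 1 sign on at least 80% of arrays for 42 (11.3%). All 3 thresholds were passed by 4 of 371 probes (1.08%), ATBF1, EBF, POU5F1 and PRDM15, all of them higher in lesioned cultures. ATBF1 encodes a large homeodomain and zinc finger protein. Its log2 ratio was 0.99 in replicate 1 and 0.68 in replicate 2, a mean of 0.83 (SE 0.25), or 1.78-fold (p = 0.011 before adjustment). It was above 0 on 7 of 8 arrays. In replicate 1 its arrays gave 1.06, 1.64 and 1.86 with laser RNA in Cy3 and 0.45 in Cy5. In replicate 2 they gave 0.17 and -0.18 in Cy3, and 1.95 and 0.77 in Cy5. The ATBF1 value was thus carried by different dye orientations in the different samples. It was 0.15 with the Cy5 arrays of replicate 2 unturned and 0.83 with its Cy3 arrays turned as well. It was 0.43 from the deposited ratios and 0.52 with no background correction.

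EBF, early B-cell factor, is a helix-loop-helix factor known from lymphocyte and neuronal development. It was above 0 on all 8 arrays, with values between 0.06 and 1.30, and averaged 0.37 in replicate 1 and 0.46 in replicate 2, a mean of 0.42 (SE 0.15), or 1.34-fold. Its spots were dim, with 144 to 1535 units in the laser channel and 180 to 2897 units in the control channel. Its ratio was 0.045 with no background correction and 0.0064 from the deposited ratios. It was 0.019 with the Cy5 arrays of replicate 2 unturned and 0.35 with its Cy3 arrays turned as well. POU5F1, the pluripotency factor also called OCT4 in mammals, averaged 0.54 in replicate 1 and 0.35 in replicate 2, a mean of 0.44 (SE 0.18), or 1.36-fold. It was above 0 on 7 of 8 arrays, and the highest, 1.81, came from a single array of replicate 1 while the other 7 lay between -0.11 and 0.84. POU5F1 was 0.26 with the Cy5 arrays of replicate 2 unturned and 0.28 with its Cy3 arrays turned as well. PRDM15, a zinc finger protein of the PR domain family, averaged 0.22 in replicate 1 and 0.57 in replicate 2, a mean of 0.40 (SE 0.16). Its 4 means were not of 1 sign, since the Cy5 array of replicate 1 gave -0.13. It was -0.069 with the Cy5 arrays of replicate 2 unturned, 0.29 with its Cy3 arrays turned as well and 0.11 with no background correction. The count of 4 was 0 without replicate 1 and 2 without replicate 2, where the remaining sample was assumed to vary like the samples of other times.

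**Figure D3:**
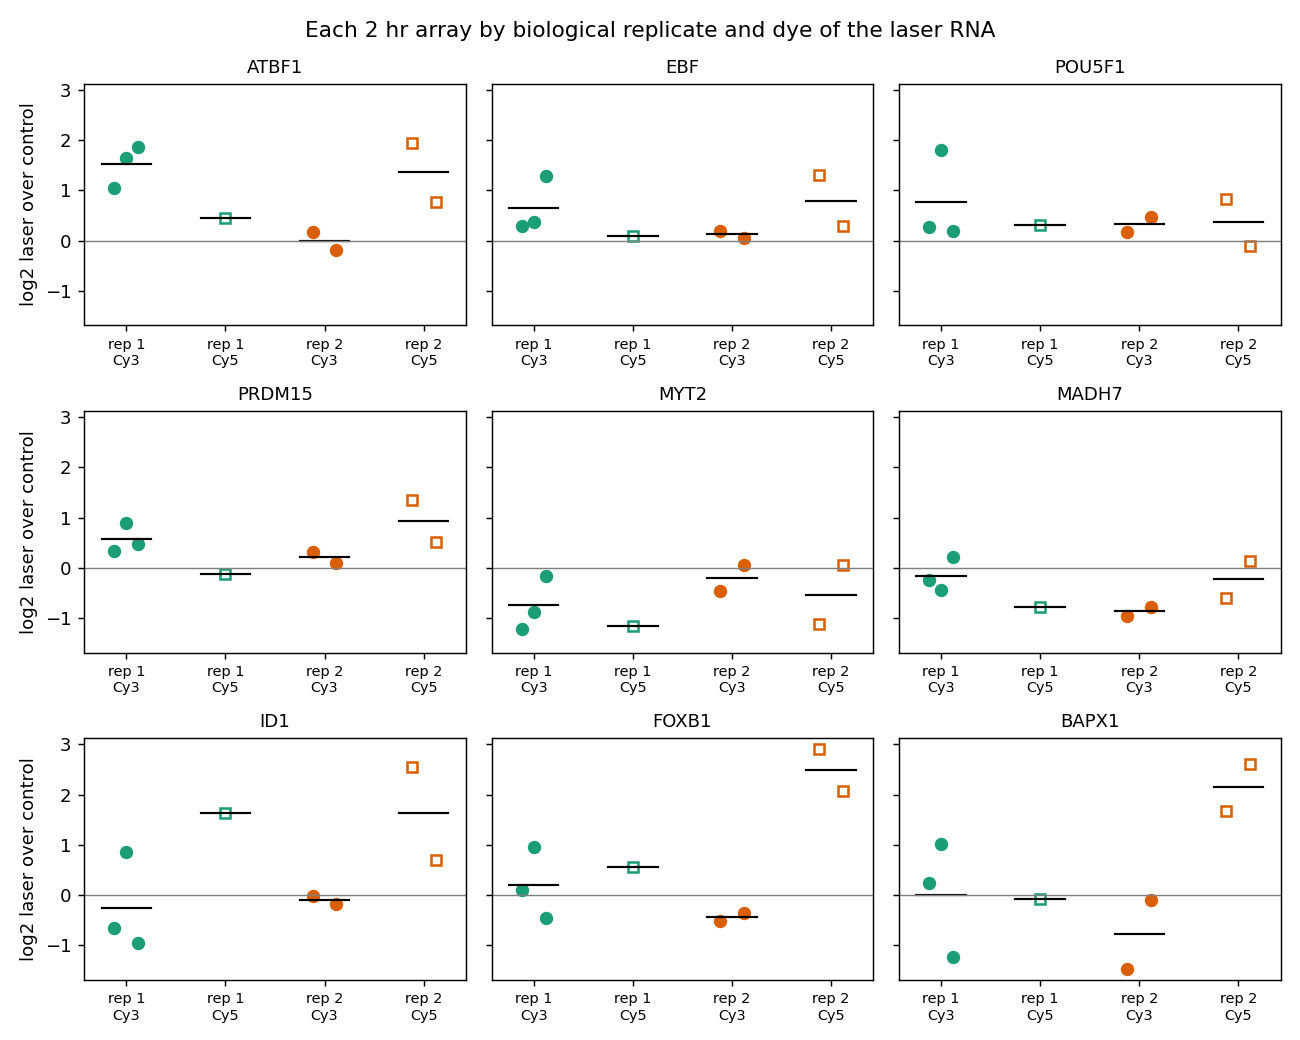
Log2 ratio of laser over control on each 2 hr array (vertical axis) by sample and dye (horizontal axis), with 1 panel for each of 9 genes. Colours stand for the sample and marker shapes for the dye that carried the laser RNA. ATBF1 and EBF lie mostly above 0 in both dyes and MYT2 and MADH7 mostly below. In replicate 2, ID1, FOXB1 and BAPX1 are above 0 on both Cy5 arrays and below 0 on both Cy3 arrays, whereas in replicate 1 the dyes overlap for FOXB1 and BAPX1.

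The 12 higher genes of the steadiest sign were POU5F1, ZFP92, MGC2508, ALDH3A1, FLJ20321, SAFB, HOXA9, NR1H3, GLI3, GTF3C4, EBF and SIX2, with means between 0.13 and 0.45. None passed an adjusted p of 0.05. HOXA9, a HOX factor of axial patterning, was above 0 on all 8 arrays, from 0.10 to 0.82, and averaged 0.27 in replicate 1 and 0.33 in replicate 2. GTF3C4, a subunit of the factor TFIIIC that recruits RNA polymerase III, was also above 0 on all 8 arrays, from 0.02 to 1.02. It averaged 0.24 in replicate 1 and 0.48 in replicate 2, a mean of 0.36 (SE 0.19), and it turned to -0.051 with the Cy5 arrays of replicate 2 unturned. HOXA9 was 0.056 in that setting and 0.21 with the Cy3 arrays turned as well. Over the 12 genes, the means lay between -0.051 and 0.34 with the Cy5 arrays unturned, where GTF3C4 was the only one below 0. With the Cy3 arrays turned as well they lay between 0.06 and 0.36. Each setting turns 1 of the 4 means of a gene, and the genes were picked for 1 sign in all 4. A kept sign was therefore largely given by the choice of genes, and a smaller size of the mean was wholly given by it. Besides EBF, HOXA9 and GTF3C4 were the only higher probes among the 371 with 1 sign on every array. SSX5, which the naming rule did not pick, was the only lower one, at -0.41, so 4 of 371 probes (1.08%) had 1 sign on all arrays.

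NR1H3, the oxysterol receptor LXR alpha, averaged 0.50 in replicate 1 and 0.16 in replicate 2, a mean of 0.33, with 6 of 8 arrays above 0. GLI3, a zinc finger effector of Hedgehog signalling, averaged 0.14 in replicate 1 and 0.12 in replicate 2, the smallest mean of the 12, and 4 of its 8 arrays were above 0. SIX2, a homeodomain factor, averaged 0.29 in replicate 1 and 0.12 in replicate 2. MGC2508 had the largest mean of the 12 at 0.45, and its samples differed most, at 0.71 in replicate 1 and 0.19 in replicate 2. ALDH3A1, an aldehyde dehydrogenase of corneal and other epithelia in mammals, averaged 0.16 in replicate 1 and 0.27 in replicate 2. SAFB, which binds scaffold attachment regions of DNA, averaged 0.18 in replicate 1 and 0.33 in replicate 2, and 7 of 8 arrays were above 0.

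The 11 lower genes described were BRD1, ABP/ZF, PFKL, SBB103, MYT2, LOC91120, SALL3, ZNF10, TRIM, MADH7 and CNOT3, with means between -0.66 and -0.23. None passed an adjusted p of 0.05. MYT2 had the lowest mean of all tested probes, -0.66 (SE 0.44), with -0.95 in replicate 1 and -0.37 in replicate 2. Its arrays ran from -1.21 to 0.07, and 6 of 8 were below 0. MADH7, the inhibitory SMAD7 that damps TGF-beta and BMP signalling, averaged -0.47 in replicate 1 and -0.55 in replicate 2, a mean of -0.51 (SE 0.34), or 0.702-fold. Its arrays ran from -0.96 to 0.21, with 6 of 8 below 0. MADH7 was -0.40 with the Cy5 arrays of replicate 2 unturned and -0.077 with its Cy3 arrays turned as well, and MYT2 was -0.39 and -0.56. All 11 stayed below 0 in both settings, and all 11 were smaller in size in each. They lay at -0.40 to -0.092 with the Cy5 arrays unturned and at -0.56 to -0.037 with the Cy3 arrays turned as well. Each setting turns only 1 of a gene's means of sample and dye orientation. These genes were picked for being below 0 in every such mean, so a kept sign was largely given by the choice of genes. The smaller size was wholly given by it.

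BRD1, a bromodomain subunit of histone acetyltransferase complexes, had nearly equal low values in both samples, -0.44 in replicate 1 and -0.41 in replicate 2, with 6 of the 7 arrays that carried the probe below 0. Its SE of 1.16 came from the spread at other times, where 3 hr replicate 1 gave -5.35. ABP/ZF averaged -0.34 in replicate 1 and -0.53 in replicate 2 (p = 0.018 before adjustment), yet its arrays ran from -1.85 to 0.54. It was -0.11 with the Cy5 arrays of replicate 2 unturned and -0.23 with its Cy3 arrays turned as well. PFKL, the liver form of the glycolytic enzyme phosphofructokinase, averaged -0.31 in replicate 1 and -0.43 in replicate 2, with 7 of 8 arrays below 0. SALL3, a spalt family zinc finger protein, averaged -0.31 in replicate 1 and -0.41 in replicate 2. CNOT3, a subunit of the CCR4-NOT complex that shortens mRNA tails, averaged -0.22 in replicate 1 and -0.33 in replicate 2, with 7 of 8 arrays below 0.

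Another set of probes turned sign with the dye. In both samples, 19 probes were above 0 with laser RNA in Cy5 and below 0 with it in Cy3, and 38 were the reverse, together 57 of 371 (15.4%). In replicate 1 the orientations had opposite signs for 151 probes (40.7%), and in replicate 2 for 229 (61.7%). The 3 probes with the widest gap between dyes also had high means. ID1, an inhibitor of basic helix-loop-helix factors and a target of BMP signalling, gave 1.64 in replicate 1 and 1.63 in replicate 2 with laser RNA in Cy5. With laser RNA in Cy3 it gave -0.25 in replicate 1 and -0.10 in replicate 2, so that its mean of 0.73 (SE 0.32) was above 0 on 4 of 8 arrays only. FOXB1, a forkhead factor of the developing brain, averaged 0.70, from 2.49 with laser RNA in Cy5 and -0.44 with it in Cy3 in replicate 2. In replicate 1 it was above 0 in both orientations, at 0.56 in Cy5 and 0.20 in Cy3. It was 0.38 without replicate 2 and turned to -0.54 with the Cy5 arrays of that replicate unturned. It had the lowest unadjusted p of all 371 probes at 0.0095. BAPX1, a homeodomain factor now called NKX3-2, gave 2.14 with laser RNA in Cy5 and -0.78 with it in Cy3 in replicate 2, but -0.068 and 0.01 in replicate 1.

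Genes that are known to respond early to injury in other tissues showed no ratio past the test. Of 23 measured immediate early and AP-1 genes, 4 passed the filter on dim probes, none was called, and all 4 lay below 0, against 187 of 371 for all tested probes. FOSB was at -0.023, JUN at -0.10, JUNB at -0.16 and MYC at -0.13. JUNB, the one of the 4 that was bright on 7 of 8 arrays, had -0.19 in replicate 1 and -0.13 in replicate 2. FOSB turned with dye in both samples, at 0.14 and 0.15 with laser RNA in Cy5 against -0.21 and -0.17 with it in Cy3. Of 25 measured NFKB, STAT and IRF genes 5 passed the filter, with a median of 0.042, a lowest value of -0.15 (CEBPB) and a highest of 0.13 (IRF2). Of 19 measured genes of stress, hypoxia and heat shock 6 passed, with a median of 0.093. Their lowest was CEBPG, a bZIP factor, at -0.41, with -0.66 in replicate 1 and -0.16 in replicate 2, and their highest was HSF1, the heat shock factor, at 0.19.

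Of the signalling pathways that pattern the sensory epithelium, only part of the measured genes passed the filter over the whole series. Of 18 measured TGF-beta and BMP genes 7 passed the filter, 3 above 0 and 4 below, with none called and a median of -0.029. They spanned most of the range of the arrays, from MADH7 at -0.51 to ID1 at 0.73. MADH5, a receptor-activated SMAD of BMP signalling, was at -0.33 and was not alike in the samples, at -0.64 in replicate 1 and -0.024 in replicate 2. Of 9 measured Notch genes 4 passed, with a median of -0.0066. The transcriptional repressors HES7, HEY1 and HEY2, targets of Notch, were at 0.026, 0.032 and -0.039, and each lay above 0 in replicate 1 and below 0 in replicate 2. FHL1 was at -0.13. Only 1 of 6 measured WNT genes passed the filter, and it was not called.

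The PAX-EYA-SIX-DACH and HOX cluster genes past the filter lay mostly above 0 and none passed the test. Among other families of developmental factors, forkhead and SOX genes lay 5 above 0 and 4 below (median 0.011). POU genes lay 2 above and 2 below, T-box genes 3 and 1, and LIM genes 3 and 0. All 6 of the 19 measured PAX-EYA-SIX-DACH genes that passed the filter lay above 0, against 184 of the 371 tested probes, with a median of 0.19. Among them were PAX5 (0.27), a paired domain factor best known from B cells, PAX7 (0.24), SIX2 (0.21), SIX4 (0.16) and SIX6 (0.16). The median of the 6 was 0.21 in replicate 1 and 0.12 in replicate 2. It was 0.032 from the deposited ratios, 0.061 with no background correction and -0.029 with the Cy5 arrays of replicate 2 unturned. Of 38 measured HOX cluster genes 12 passed, 10 above 0 and 2 below, with a median of 0.10, a highest value of 0.32 (HOXA5) and a lowest of -0.15 (HOXB3). The HOX median was 0.018 with median centring and -0.036 from the deposited ratios. In both settings the median of all tested probes was lower as well, as given above with the scaling. The HOX median lay above it in both, and the PAX-EYA-SIX-DACH median lay above it from the deposited ratios.

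Epithelial and general transcription genes were spread around 0. Of 15 measured genes of epithelial identity and plasticity 5 passed the filter, SNAI1 at 0.045, KLF5 at -0.06, COPEB (now KLF6) at 0.15, ELF3 at 0.14 and TFAP2A at -0.0015. KLF5, a Kruppel-like factor of proliferating epithelium, had opposite signs in the samples, 0.17 in replicate 1 and -0.29 in replicate 2. Of 27 measured cell cycle genes 6 passed, with a median of -0.11, a lowest value of -0.25 (MAX, the partner of MYC) and a highest of 0.18 (MYBL2). Of 36 general transcription factors 9 passed, 6 above 0, with a median of 0.066. Of 45 nuclear receptors 7 passed, 3 above 0 and 4 below, with a median of -0.031 and a highest value of 0.33 (NR1H3). Of 161 ZNF and ZFP zinc finger genes 20 passed, 8 above 0 and 12 below, with a median of -0.025.

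**Figure D4:**
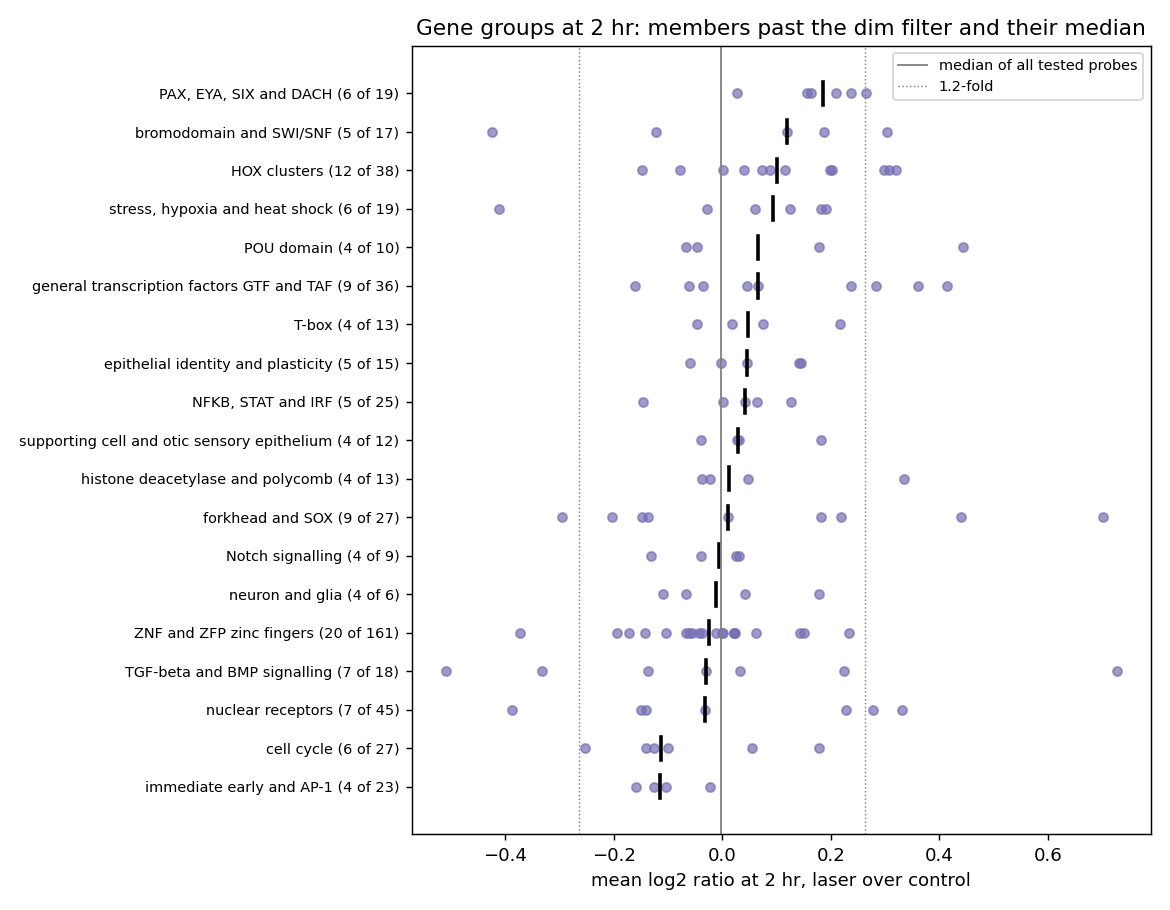
Log2 ratios of laser over control at 2 hr (horizontal axis) for the members of each gene list with at least 4 members past the filter on dim probes (rows), 1 point a gene, with the median marked. The members of most lists lie on both sides of 0, and the PAX-EYA-SIX-DACH list lies wholly above it (median 0.19).

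The labelled tissue was checked against marker genes. Of all 1518 identifiers, 67.7% were above the local background plus 2 SD on at least 50% of the 2 hr arrays in the laser channel and 66.3% in the control channel. Of 12 measured supporting cell and otic markers, 8 passed this rule in each channel, a share near that of all identifiers. SOX2, a progenitor and supporting cell factor, averaged 0.18, and its dye orientations in replicate 2 gave 0.91 and -0.30. The summed intensity of these 12 markers ran from 2160 to 21982 units in the laser channel and from 2598 to 32090 units in the control channel. Hair cell factors were not set apart from all identifiers by these counts. Of 4 measured, POU4F3, GFI1 and BARHL1 were above background by this rule in both channels, and ATOH1 was not. None passed the filter on dim probes, which only 24.4% of all identifiers passed. With that filter set on the 2 hr arrays alone, 2 of the 4 passed, as did 1100 of the 1518 identifiers. The sum of the 4 hair cell factors ran from 515 to 6324 units in the laser channel and from 728 to 9368 units in the control channel.

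Markers of other cell types were above background too. With so few markers against the share of all identifiers, these counts do not tell cell types apart. By the same rule 6 of 8 stromal markers passed in the laser channel and 7 of 8 in the control channel, 4 and 3 of 6 neuronal and glial markers, and 5 and 4 of 8 blood markers. The summed stromal signal was 1328 to 15114 units in the laser channel and 1664 to 19728 units in the control channel. The neuronal and glial sum was 1059 to 21549 units in the laser channel and 1343 to 12500 units in the control channel. The blood sum was 1249 to 11558 units in the laser channel and 1380 to 19907 units in the control channel. GFI1B, a transcriptional repressor at work in blood lineages, was at 0.33 in the lesioned cultures with 7 of 8 arrays above 0. Its means of sample and dye orientation were not all of 1 sign. SPI1, the myeloid factor PU.1, was at 0.0052. The part of cell type makeup in the ratios was not tested.

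The 2 hr ratios were then compared with those of the other recovery times in the same fit. No probe of the 371 (0%) had an adjusted p under 0.05 for 2 hr minus 30 min, minus 1 hr, minus 3 hr or minus the mean of the other 3 times, with smallest adjusted p of 0.997, 0.996, 0.944 and 0.997. Unadjusted p under 0.05 was found for 0, 2 (0.539%), 6 (1.62%) and 1 (0.27%) of the probes. ATBF1 was the probe with the smallest unadjusted p for 2 hr minus 1 hr and for 2 hr minus the other times. Its mean was 0.093 after 30 min, -0.29 after 1 hr, 0.83 after 2 hr and 0.26 after 3 hr. Its 1 hr samples disagreed in sign, at -0.77 in replicate 1 and 0.18 in replicate 2. The 2 hr minus 1 hr difference was 1.13 (SE 0.35, p = 0.014 before adjustment). It was 0.65 without 1 hr replicate 1 (p = 0.096 before adjustment in limma) and 1.60 without 1 hr replicate 2. With all samples it was called with single arrays as units and image date as a random block (adjusted p = 0.031).

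SBB103 and VENTX2 ran the other way. SBB103 averaged 0.19 after 30 min, 0.19 after 1 hr, -0.31 after 2 hr and -0.11 after 3 hr, and its 2 hr minus 30 min difference was -0.50 (SE 0.23). VENTX2, a homeobox gene, averaged -0.014 after 30 min, 0.32 after 1 hr, -0.21 after 2 hr and 0.013 after 3 hr, and its 2 hr minus 1 hr difference was -0.53 (SE 0.20). Before adjustment, 2 hr minus 3 hr had the most probes with a limma p under 0.05, 6 of 371 (1.62%). That share is below the one the threshold of 0.05 lets through without any difference. The 3 hr group also held 3 samples, where the other times held 2, and its replicate 1 had an SD over probes of 1.03. The part of these in the count was not tested. GTF2F1, a subunit of the general factor TFIIF, averaged -0.052 after 30 min, 0.17 after 1 hr, 0.28 after 2 hr and -0.36 after 3 hr, with a 2 hr minus 3 hr difference of 0.64 (SE 0.22), or 0.40 without 2 hr replicate 1. TAF2C1, a subunit of TFIID, differed by 0.76 (SE 0.29) between 2 hr and 3 hr. Its 3 hr samples were at -0.88, 0.0079 and -0.15, and the difference was 0.48 without 3 hr replicate 1. NR1H3 differed by 0.73 (SE 0.29), and the difference turned to -0.20 from the deposited ratios. For ID1 the difference was 1.14 (SE 0.41), and its 3 hr samples ranged from -1.27 to 0.30. It was 0.71 without 3 hr replicate 1 and 0.12 from the deposited ratios.

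**Figure D5:**
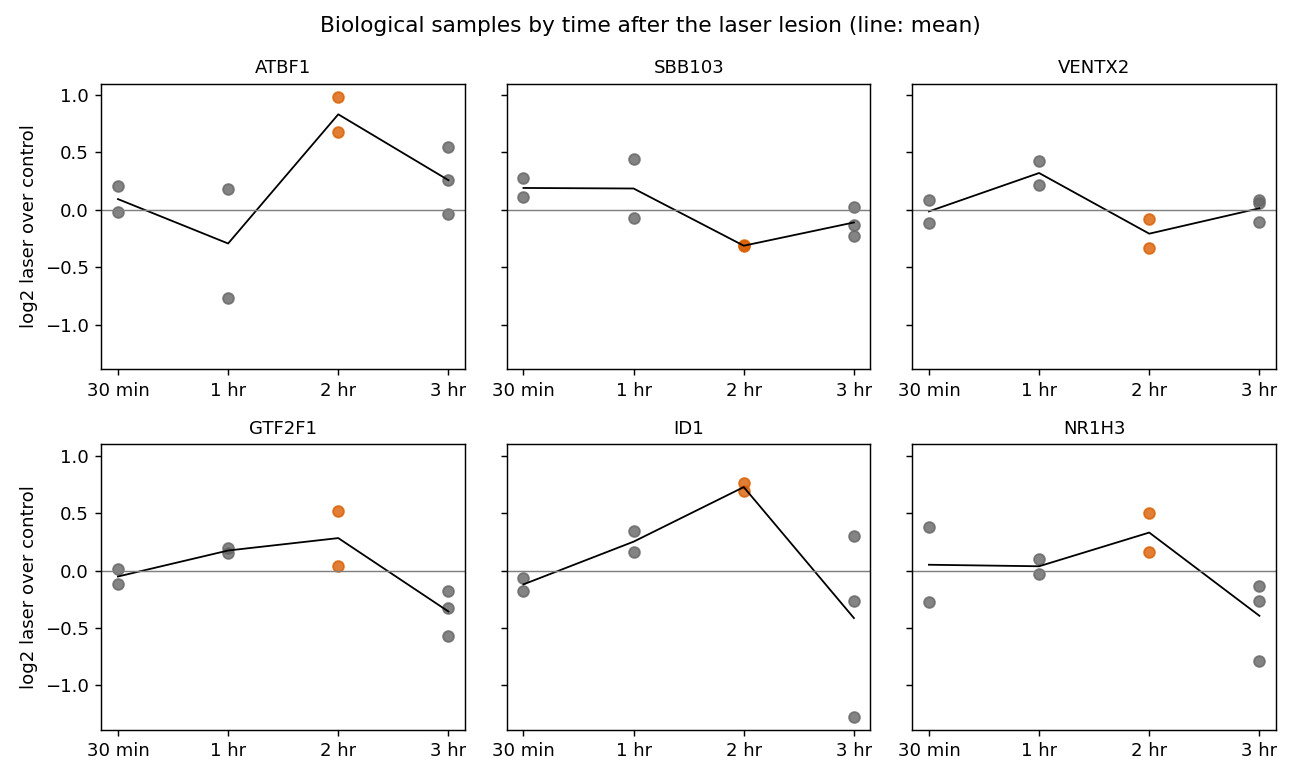
Log2 ratio of laser over control (vertical axis) at 30 min, 1 hr, 2 hr and 3 hr after the lesion (horizontal axis) for 6 genes, with points for biological samples and a line through the means. ATBF1 has its highest mean at 2 hr (0.83), SBB103 and VENTX2 their lowest (-0.31 and -0.21), and GTF2F1, ID1 and NR1H3 are lower at 3 hr (-0.36, -0.41 and -0.39).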

How the data were processed

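Per the file headers, the deposited channel files hold the intensity of each spot and of its local background on a linear scale, measured by the authors in ImaGene 4.1 without subtraction of background or normalization. The series table deposited by the authors holds log2 ratios of the same spots. Each 2 hr column equalled the raw laser over control ratio by file name, with a largest difference of 7.1e-15. The scale is therefore known, and the table was neither centred nor normalized. By the headers, the column of the 2 hr array whose files hold each other's image ran the other way, with a median of -0.619 against 0.619. For the values given from the deposited ratios, columns of arrays whose files and headers disagree were turned. Every column was also centred on its median. The authors went on to lowess normalization, removal of poor hybridizations and a one-sample t-test, and those values were not used here.

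Background was corrected by normexp (offset 50), ratios were normalized within arrays by loess with control spots at weight 0, and all were turned to laser over control by the dye in the header. Spots, then arrays of 1 dye, then dyes, were averaged for each biological sample. The filter on dim probes was a fixed signal of 1000, since no column says which spots are controls without a chick homologue. For the test, limma 3.58.1 under R 4.3.3 (with statmod 1.5.0) was given the 9 samples and estimated 1 mean for each recovery time, without the replicate number as a block, on 5 residual degrees of freedom. Benjamini-Hochberg adjustment was over the 371 probes. The script was tested on simulated data. The labels call the samples biological replicates but do not tie them to animals, so p-values measure the spread between these pooled samples. Image dates were taken as batches, and the 8 arrays span 6 of them, each shared with other times. The main fit had no term for image date, which was a random block only in an alternative fit of single arrays. Each of the 6 dates held 2 hr arrays of only 1 of the 2 samples. Differences between dates and between samples therefore cannot be told apart at 2 hr.

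Named genes were those past adjusted p 0.05, then the 12 higher and the 12 lower of steadiest sign, ranked by the smallest of their 4 means. Added were members of the immediate early, Notch, epithelial, hair cell and supporting cell lists, ATBF1, EBF, POU5F1, PRDM15 and MYT2, and the 5 smallest p of each contrast. Members and lists were chosen with earlier results of these data known, and other list members are named as examples chosen after their values were seen. An identifier that is a sequence accession is not printed, and a few genes, 1 of the 12 lower among them, are not reported here. No column of per-sample values was left unmapped. Alternatives covered background correction, scaling, dye direction, filters, units of the fit and samples left out. Arrays carry no counts, so their number limits the precision.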

Additional observations from a re-analysis of the deposited data

Results flagged for a closer look

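A pair of identifiers on the earlier print of the array lay outside the 1518 described, and both are named for chick sequences. BMP4-chick, named for a secreted signal of the BMP family, had 404 units in the laser channel and 481 units in the control channel of the single 2 hr array of that print, a log2 ratio of -0.11. FGFR3-chick, named for a fibroblast growth factor receptor, had 408 units in the laser channel and 385 units in the control channel, a log2 ratio of -0.039. Of all spots on that array, 47.0% lay below their local background in the laser channel and 82.5% in the control channel. Each chick-named probe had 2 of its 4 spots above the local background plus 2 SD in the laser channel. In the control channel it had 0 of 4. That signal outside the main measurement drew attention to both probes, and the part of the array-wide gap between channels in these counts was not tested. The human-named BMP4 and FGFR3 probes of the same array had 0 of 4 spots above that level in either channel. On the 4 arrays of that print at 3 hr, both chick-named probes had 0 of 16 spots above that level in either channel, whereas the human-named FGFR3 had 2 and the human-named BMP4 had 1 in the laser channel. With 1 array at 2 hr no test was possible.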

How the results depend on the processing

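At 2 hr, 0 probes had an adjusted p under 0.05 under every alternative except 2. The fit of the 2 hr samples alone called 12, and the fit of single arrays with the image date as a random block called 1, ATBF1, and also 1 for 2 hr minus 1 hr. The count past thresholds like the study's was 4 of 371 probes tested. It was 42 of 1518 with no filter on dim probes and 34 of 1100 with that filter set on the 2 hr arrays. With a filter on background plus 2 SD it was 27 of 986. On the 371 probes it became 2 with no background correction and 1 with median centring. It became 9 in a fit of single arrays in which the sample was a random block, 24 with the 2 hr samples alone, 20 with arrayWeights (which did not converge), 2 with the methods' t-test on samples, 19 with that test on arrays, 1 with arrays of the same image date only and 11 with the image date as a random block. Leaving out 1 sample gave 0 to 7 (0 without 2 hr replicate 1, 2 without 2 hr replicate 2, 3 hr replicate 2 or 3 hr replicate 3, and 7 without either 30 min sample or 3 hr replicate 1). The methods' t-test gave 23 probes on samples and 29 on arrays with p under 0.05 before adjustment and 0 after it. The 35 of 371 probes of 1 sign over 1.2-fold became 9 with no background correction and 57 from the deposited ratios. They became 22 with the suffix 5 (Cy5) arrays of replicate 2 unturned and 18 on arrays of the same image date. With the 3 other filters, in the order named above, they became 95 of 1518, 80 of 1100 and 70 of 986. The correlation of the samples, 0.40, became 0.19 with no background correction, -0.15 with the suffix 5 arrays unturned and 0.15 with the suffix 3 (Cy3) arrays turned as well. The 4 detectable identifiers became 29 at a signal above 500, 30 with either channel, 93 by background plus 2 SD, 74 with at least 50% of arrays, and 5 to 21 on leaving out a sample (21 without replicate 1). The cause of these shifts was not tested.

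Of the 48 named genes, 16 kept their sign in all 31 settings, and of the 23 of steadiest sign, 14 did. Settings that change only the probe filter, or leave out a sample of another time, cannot change a 2 hr mean. The 23 genes were also picked for having the same sign in every mean of sample and dye orientation. A kept sign was therefore partly given in advance, and these counts do not measure robustness. With no background correction HEY2 became 0.032, SNAI1 -0.022, COPEB -0.036, TFAP2A 0.035 and GTF2E2 -0.12. With median centring GLI3 became -0.0296, HES7 -0.15, SNAI1 -0.0302, GTF2E2 -0.10 and the probe listed under an accession -0.043. With channels by file name FOSB became 0.21, HES7 -0.15, KLF5 0.10, TFAP2A 0.13 and the 2 hr minus 3 hr difference of the accession probe -0.0099. From the deposited ratios ZFP92 became -0.00052, ALDH3A1 -0.0399, FLJ20321 -0.016, SAFB -0.0036, NR1H3 -0.0039, GLI3 -0.11, HES7 -0.15, SNAI1 -0.079, COPEB -0.11, ELF3 -0.11, TFAP2A 0.0031, SOX2 -0.22, BAPX1 -0.038, GTF2E2 -0.25, the accession probe -0.13, NR1H3 in 2 hr minus 3 hr -0.20 and FOXB1 in 2 hr minus the other times -0.17. With the suffix 5 arrays of replicate 2 unturned GTF3C4 became -0.051, JUNB 0.036, MYC 0.0701, HEY2 0.25, FHL1 0.11, SNAI1 -0.033, KLF5 0.10, COPEB -0.12, SOX2 -0.27, PRDM15 -0.069, BAPX1 -0.74, GTF2E2 -0.23, ID1 -0.086, TAF2C1 -0.073, FOXB1 -0.54, BAPX1 in 2 hr minus 30 min -0.21 and FOXB1 in 2 hr minus the other times -0.76. With the suffix 3 arrays turned as well FOSB became 0.063, JUN 0.014, HES7 -0.25, KLF5 0.068, TFAP2A 0.077 and VENTX2 0.0203. Without the earlier-print array FOSB became 0.012, HEY1 -0.021, KLF5 0.019 and TFAP2A 0.052. As a plain mean over arrays, with the sample as a random block and in the methods' t-test on arrays, HES7 became -0.074, KLF5 0.015 and TFAP2A 0.013. Chosen after seeing the data were 3 settings that turned a sign. Arrays of the same image date gave FOSB 0.049, JUN 0.0061, HES7 -0.16 and HEY2 0.012. Leaving out the array whose files and headers disagree gave FOSB 0.17, HES7 -0.0089, KLF5 0.036 and TFAP2A 0.088. The image date as a random block gave HES7 -0.065, KLF5 0.036 and TFAP2A 0.0026. On leaving out 1 sample, HES7 ran from -0.16 to 0.21, HEY1 from -0.079 to 0.14, HEY2 from -0.16 to 0.077, KLF5 from -0.29 to 0.17, TFAP2A from -0.035 to 0.032, BAPX1 from -0.029 to 0.68, FOG2 from -0.64 to 0.26 and the accession probe from -0.098 to 0.32.

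Samples of different times share only a replicate number. Their deviations correlated between same-numbered samples at -0.37 to 0.26 (median -0.089, 12 pairs), and 0 of 9 samples were most like a sample of their own number. With the replicate number as a block, 0 probes were called at adjusted p under 0.05, 2 had an unadjusted p under 0.05 and 0 passed the thresholds like the study's. In that block fit BRD1 became 0.49, ZNF10 0.11, JUN 0.11, FHL1 0.29 and KLF5 0.20.

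The precision was limited by 2 samples, by dim arrays (up to 82.5% of spots below background), and by readings at the top of the scale for 8 probes, none of them among the 48 named genes.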
